A study of Mus musculus with 12 samples.

Results

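Chil3, Chil4, Arg1 and Igf1 are genes used as readouts of alternative activation in mouse macrophages, and they are described here together with Igf2bp3 and Anpep in cultured airway macrophages (AMs). The 6 genes were taken by name and matched to the count table through their Ensembl identifiers. All 6 are among the 20551 genes of the table, and all 6 passed the filter on low counts that 13729 genes passed. The table holds 12 RNA-seq libraries of C57BL/6 mice in 4 groups of 3, wild-type (WT) or Scnn1b-transgenic (Tg) AMs kept for 12 h in medium or with 100 ng/ml LPS from Pseudomonas aeruginosa. Scnn1b-Tg mice overexpress an epithelial sodium channel subunit under the club cell secretory protein promoter, which obstructs their airways with mucus. The controls were WT littermates without the transgene, and the animals were 6 weeks old. For treated cells the study pooled lavages of 3 to 4 animals, but for sequencing its methods describe AMs sorted from digested lungs. Which applies to these libraries is not clear. By the numbers in the titles, each of 6 pools, WT 16, 17 and 18 and Tg 17, 18 and 19, gave a medium and an LPS library. The main fit has no term for the pool, so its p-values treat the 12 libraries as independent, although libraries of the same pool are linked. Only the fits that model the pool, named where they are used, take this link into account. The comparisons address whether AMs from mucus-obstructed airways differ from WT AMs at rest and in their response to bacterial LPS.

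Alternative activation is the macrophage program that IL-4 and IL-13 set off through their shared receptor and the transcription factor STAT6. In mice its usual readouts are the chitinase-like proteins YM1 (Chil3) and YM2 (Chil4), which bind sugars without cutting chitin, and arginase 1 (Arg1), which turns arginine into ornithine and urea. Resident AMs make YM1 at rest, without outside IL-4. Igf1, insulin-like growth factor 1, is a growth factor that macrophages release during tissue repair. Igf2bp3 encodes an RNA-binding protein of the IGF2 mRNA-binding family, and Anpep encodes aminopeptidase N (CD13), a peptidase on the surface of myeloid cells.

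The 6 genes lie on 4 chromosomes of mm10. Chil3 (ENSMUSG00000040809, chromosome 3, 106147554 to 106167564) and Chil4 (ENSMUSG00000063779, chromosome 3, 106201490 to 106219507) are neighbouring copies on the minus strand. Arg1 (ENSMUSG00000019987) lies on the minus strand of chromosome 10 from 24915221 to 24927484, and Igf1 (ENSMUSG00000020053) on the plus strand of chromosome 10 from 87858265 to 87937042. Igf2bp3 (ENSMUSG00000029814) lies on the minus strand of chromosome 6 from 49085223 to 49214957, and Anpep (ENSMUSG00000039062) on the minus strand of chromosome 7 from 79821803 to 79861059. All 6 are annotated as protein-coding. Igf2bp3 shares 1529 bases of exon with Malsu1, and without strand the reads of these bases cannot be told apart. No exon of the other 5 overlaps another gene.

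Chil3 and Chil4 are so alike that reads could be given to the wrong copy, so their sequences are shown first. Their annotated GENCODE M21 coding sequences, of 1197 and 1209 bases, differed at 56 aligned bases and by 12 gap bases, an identity of 95.3% of the aligned bases. The first 120 coding bases, read from the start codon, are given as an example, and hold fewer differences for their length than the whole coding sequence. Capitals mark the 3 bases at which the copies differ.
Chil3: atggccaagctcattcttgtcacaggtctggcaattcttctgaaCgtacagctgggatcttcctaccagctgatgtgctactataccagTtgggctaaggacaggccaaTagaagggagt
Chil4: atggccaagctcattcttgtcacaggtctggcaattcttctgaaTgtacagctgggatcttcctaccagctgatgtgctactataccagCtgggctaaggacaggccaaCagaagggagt
The reads were 125 bases long. Of the 1415 stretches of that length in the 1539-base Chil4 transcript, 12 (0.848%) also occurred without a mismatch in the Chil3 transcript, and the longest run of identical coding bases was 136.

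The copies are also alike before their starts. RefSeq promoter windows (GRCm38.p6) were found for 5 of the 6 genes, all except Arg1, and the 250 bases before the start were searched on both strands for 3 motifs. These were TTC and GAA separated by 4 bases, the spacing STAT6 prefers, TTC and GAA separated by 3 bases, a general STAT spacing, and TTGCNNAA, a C/EBP-type motif. Among 32851 promoters of the same length, 5.85%, 7.02% and 9.56% held a match. Over the 250 bases, Chil3 and Chil4 agreed at 91% of aligned bases with 58 gap bases. The 110 bases below begin 20 bases before a STAT match with a spacing of 3 that both genes hold. It lies at 172 to 164 bases before the RefSeq start of Chil3 and 200 to 192 before that of Chil4. These starts are not alike. The Chil4 window begins at 106219480, inside the GENCODE gene that ends at 106219507. The Chil3 window begins at 106167565, next to its gene end at 106167564. The unequal distances and the gap bases therefore do not show that the promoters are laid out differently. Both are on the minus strand, Chil3 at chr3:106167647-106167756 and Chil4 at chr3:106219590-106219699, and capitals mark the motif matches.
Chil3: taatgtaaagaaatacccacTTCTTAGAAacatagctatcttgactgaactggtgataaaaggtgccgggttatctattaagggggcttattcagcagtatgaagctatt
Chil4: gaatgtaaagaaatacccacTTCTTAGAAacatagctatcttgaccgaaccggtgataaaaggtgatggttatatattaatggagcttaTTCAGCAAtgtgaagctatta
The second run of capitals in Chil4 is a C/EBP-type match on the opposite strand that the Chil3 window lacks. The Igf2bp3 promoter held a match to the STAT6 spacing, TTCCTCCGAA, at 63 to 54 bases before its start. No match to the 3 motifs was found in the windows of Igf1 and Anpep, and a match or its lack in such a window says nothing about binding.

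The libraries held 48.2 to 60.9 M estimated counts, and 8 counts, about 3 reads, was taken as the level at or below which a gene is not read. The 16 AM markers were all read, and their sum was led by Ctsd, far above Lpl and Cd68. CPM are counts scaled to 1 M per library. With LPS the sum was lower, at 18531 to 20376 CPM (WT) and 16874 to 20142 CPM (Tg). Medium libraries held 38508 to 40969.7 CPM (WT) and 38759 to 41672 CPM (Tg). Single AM genes went both ways in both genotypes. Mean Siglecf (WT medium 115, WT LPS 11.1 CPM), Fabp4 (235, 25.4) and Itgax (407, 329.6) were lower with LPS. Mean Marco (631, 1255) and Car4 (16.9, 47.3) were higher. Summed epithelial markers, led by Scgb1a1 and Sftpc, were lower in the Tg libraries (45.4 to 80.6 CPM in medium) than in the WT libraries (109 to 137 CPM). With LPS they were at 38.5 to 74.1 CPM in Tg and 84.4 to 148 CPM in WT. Summed neutrophil markers, led by Mmp8 and S100a8, were higher in Tg in medium (27.4 to 37.8 CPM against 20.7 to 24.2). With LPS their ranges overlapped (17 to 22.5 CPM against 15.2 to 17.5). Summed dendritic cell markers, led by Ccr7, were higher in Tg as well, at 6.26 to 9.85 CPM against 4.38 to 5.95 in medium and 13.7 to 20.5 CPM against 9.92 to 10.8 with LPS. The neutrophil genes S100a9, Ngp and Mmp9 and the mast cell genes Cpa3 and Tpsb2 stayed at or below 8 counts in every library. The part of other cells, or of the AM markers' shift with LPS, in the results below was not tested, and in bulk RNA fewer cells of a type and less RNA per cell cannot be told apart. Xist, the RNA of the inactive X chromosome, was at 0 counts in both libraries of Tg pool 19 and between 4.21 and 24.7 CPM in the other 10. In WT pools 16 and 17 it was at 6.36 and 6.82 CPM in medium and at 4.21 and 4.28 CPM with LPS. In medium and LPS it was at 22.4 and 24.6 CPM in WT pool 18 and at 24.4 and 24.7 CPM in Tg pool 18. In Tg pool 17 it was at 24.6 CPM in medium and 8.08 CPM with LPS. The study's methods name female animals for its sequencing, and Xist at 0 in Tg pool 19 goes against that. The make-up of that pool was not tested, and neither was the assignment of the 2 libraries of Tg pool 17, which differed in Xist. The make-up of WT pools 16 and 17, with their lower Xist, was not tested, and no fit left out a whole WT pool. The text gives the values without Tg pool 19 where a call changed or a value moved by over 1.5 times.

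The 6 genes covered a wide range of levels. Per length, as CPM per kilobase of exon, Chil3 stood at 4081 to 8827 and above every other member in every library, and its counts ranked 5 to 7 among all genes. Anpep followed at 42 to 140.4 CPM per kilobase. Chil4 (0.349 to 10.5), Igf1 (0.819 to 12) and Igf2bp3 (0.45 to 2.43) overlapped in their ranges across the 12 libraries. Arg1 was lowest in reach, at 0 to 1.07 CPM per kilobase, and was at or below 8 counts in 8 libraries.

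**Figure D1:**
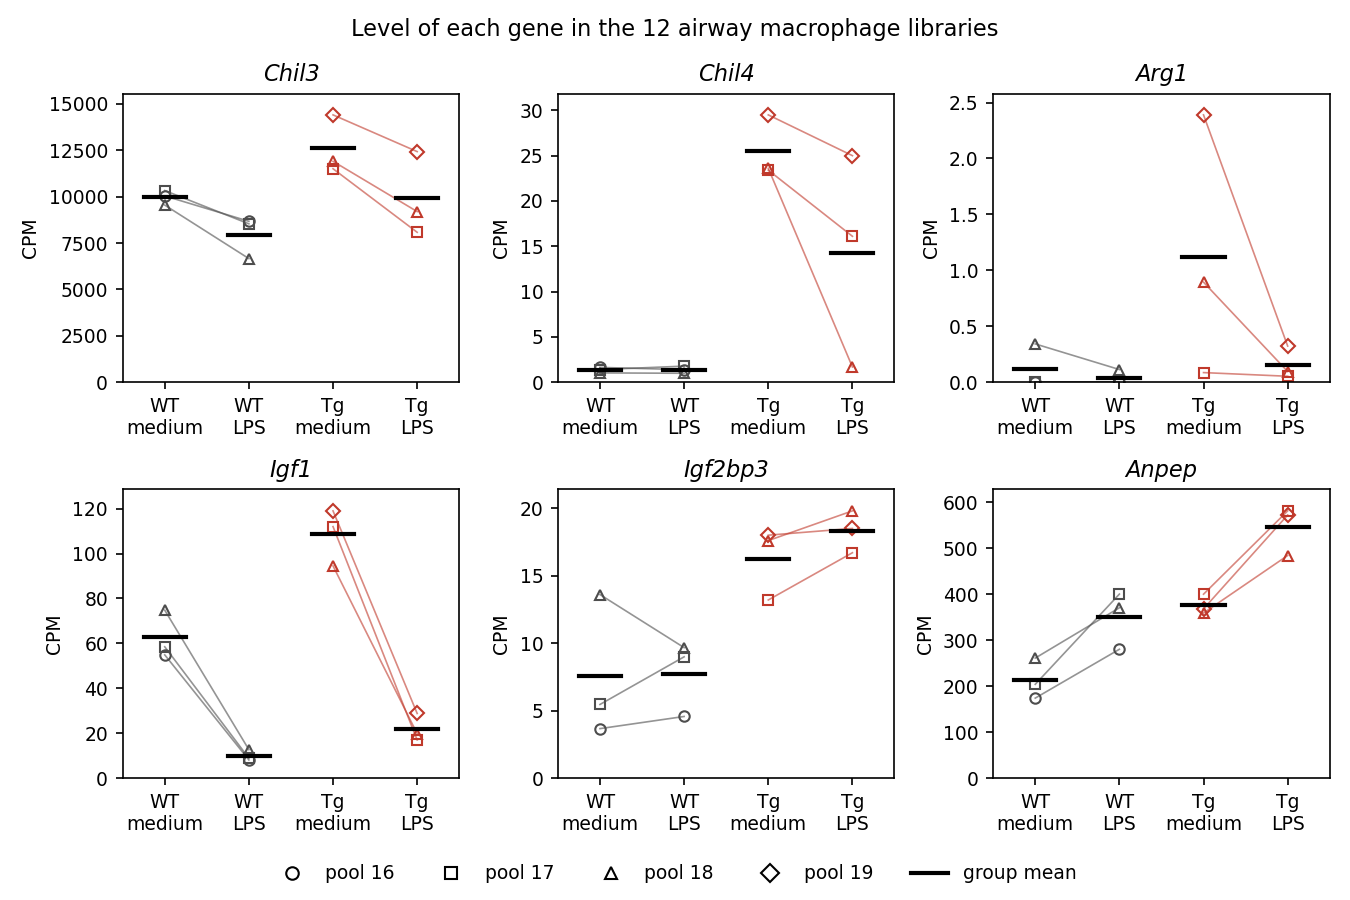
CPM (linear axes from 0, a different range in each panel) of the 6 genes in the 12 libraries, with WT in grey and Tg in red. Symbols name the pool, thin lines join the medium and LPS library of a pool, and thick bars are group means (n = 3): the Igf1 lines fell and the Anpep lines rose in all 6 pools, and the Chil4 line of Tg pool 18 drops from 23.6 to 1.67 CPM.

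Igf1 fell with LPS in both genotypes and had the largest fold change with LPS among the members outside the low counts of Arg1. In WT AMs it was at 54.9, 58.5 and 74.8 CPM in medium in pools 16, 17 and 18 and at 8.11, 8.88 and 12.7 CPM with LPS. In Tg AMs it was at 112, 94.5 and 119 CPM in medium in pools 17, 18 and 19 and at 17, 19.8 and 28.8 CPM with LPS. The medium and LPS libraries did not overlap in either genotype, and every pool fell, by 4.15-fold in Tg pool 19 to 6.77-fold in WT pool 16. The log2 change with LPS was -2.67 (SE 0.18, n = 3 per group, adjusted p = 1.55e-06, edgeR) in WT AMs and -2.34 (SE 0.18, adjusted p = 2.31e-06) in Tg AMs.

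Anpep moved the other way and rose with LPS. In WT AMs it went from 174, 204 and 261 CPM in medium to 280.2, 400.1 and 370.4 CPM with LPS in pools 16, 17 and 18. In Tg AMs it went from 399.9, 359 and 368 CPM to 581, 484 and 572 CPM in pools 17, 18 and 19. Medium and LPS did not overlap within a genotype, and each of the 6 pools rose, by 1.35-fold in Tg pool 18 to 1.96-fold in WT pool 17. The log2 change was 0.72 (SE 0.16, adjusted p = 0.00572, edgeR) in WT AMs and 0.54 (SE 0.16, adjusted p = 0.0221) in Tg AMs. Without Tg pool 18 the Tg value was 0.58 (adjusted p = 0.0599, edgeR), without Tg pool 19 it was 0.49 (adjusted p = 0.144), and it also missed the threshold when any of 4 single Tg libraries was left out. The resting Tg libraries lay in the range of the LPS-treated WT libraries.

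Chil3, the YM1 gene that AMs make at rest, was lower with LPS in all 6 pools, by small factors. It was at 10039, 10329 and 9545 CPM in WT medium and at 8670.0, 8533 and 6660.3 CPM in WT with LPS, without overlap. In Tg AMs it was at 11503, 11904 and 14406 CPM in medium and at 8077, 9194 and 12427 CPM with LPS, where the groups overlapped. The LPS level was 1.16-fold to 1.43-fold below medium within a pool. The log2 change was -0.32 (SE 0.16, adjusted p = 0.151, edgeR) in WT AMs and -0.35 (SE 0.16, adjusted p = 0.111) in Tg AMs, so neither passed the threshold. With the pool as a replicate block, which pairs the libraries that share a title number, it was -0.34 (adjusted p = 0.00924, edgeR) and -0.37 (adjusted p = 0.0052), and both passed. Without Tg pool 19 it was -0.33 (adjusted p = 0.04) in WT AMs and -0.44 (adjusted p = 0.0324) in Tg AMs. Without the Tg LPS library of pool 19, the Tg value was -0.54 (adjusted p = 0.0131).

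Arg1 was read mainly in resting Tg AMs of batch 2, in few counts. It was at 0, 0 and 17 counts in WT medium and at 0, 0 and 6 counts in WT with LPS. In Tg medium it was at 5, 47 and 128 counts in pools 17, 18 and 19, and with LPS at 3, 5 and 17 counts. The libraries came in 2 batches, and every one above 8 counts was of batch 2, which held WT pool 18 and Tg pools 18 and 19. Genotype and batch are thus hard to tell apart for Arg1. The 2 Tg groups overlapped, since Tg pool 17 stayed at or below 8 counts in both conditions. The log2 change with LPS in Tg AMs was -2.47 (SE 0.87, adjusted p = 0.0457, edgeR). It missed the threshold without Tg pool 19 (-1.95, adjusted p = 0.378), without Tg pool 18 (-2.01, adjusted p = 0.194) and without 11 of the 12 single libraries. In WT AMs the estimate was -1.33 (SE 1.14, adjusted p = 0.431), and without the medium library of pool 18 it turned to 1.78 (adjusted p = 0.529).

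Chil4 and Igf2bp3 gave no called change with LPS. Chil4 in WT AMs was at 1.63, 1.39 and 1.02 CPM in medium and at 1.38, 1.77 and 0.982 CPM with LPS. The 2 WT groups overlapped, with a log2 change of 0.03 (SE 0.74, adjusted p = 0.983, edgeR). In Tg AMs Chil4 was at 23.4, 23.6 and 29.5 CPM in medium and at 16.1, 1.67 and 25 CPM with LPS in pools 17, 18 and 19. The LPS level thus lay 1.46-fold and 1.18-fold below medium in pools 17 and 19 and 14.1-fold below in pool 18. The log2 change was -0.86 (SE 0.63, adjusted p = 0.328, edgeR), and without the LPS library of Tg pool 19 it was -2.07 (adjusted p = 0.0342). Without both libraries of Tg pool 19 it was -1.84 (adjusted p = 0.0703, edgeR), and without those of Tg pool 18 it was -0.36 (adjusted p = 0.434).

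Igf2bp3 in WT AMs was at 3.67, 5.46 and 13.6 CPM in medium and at 4.57, 8.99 and 9.67 CPM with LPS. In Tg AMs it was at 13.2, 17.6 and 18 CPM in medium and at 16.7, 19.8 and 18.5 CPM with LPS. Medium and LPS overlapped in both genotypes, and the log2 changes were 0.15 (SE 0.31, adjusted p = 0.775, edgeR) in WT AMs and 0.19 (SE 0.3, adjusted p = 0.669) in Tg AMs. In WT medium the values spread 3.72-fold, and the library of pool 18, which came from the second of 2 batches, lay above both libraries of batch 1.

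Of the 6 members, 1 rose (Anpep) and 1 fell (Igf1) with LPS in WT AMs, where 15.2% of all genes tested rose and 15.7% fell. In Tg AMs 1 rose (Anpep) and 2 fell (Igf1 and Arg1), where 18.8% of all genes rose and 17.8% fell. With 6 genes, a single call is already a share near these, so the counts do not set the members apart. For the difference in LPS response between the genotypes, 0 of 6 members were called by edgeR, 0 had an unadjusted p under 0.05 and DESeq2 called 0. Among all genes 0% were called by edgeR. The lowest adjusted p over all genes was 0.12, and 795 genes had an unadjusted p under 0.05. The difference was 0.33 (SE 0.24, adjusted p = 0.963) for Igf1, 0.16 without Tg pool 19, and -0.18 (SE 0.23, adjusted p = 0.992) for Anpep on the log2 scale.

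**Figure D2:**
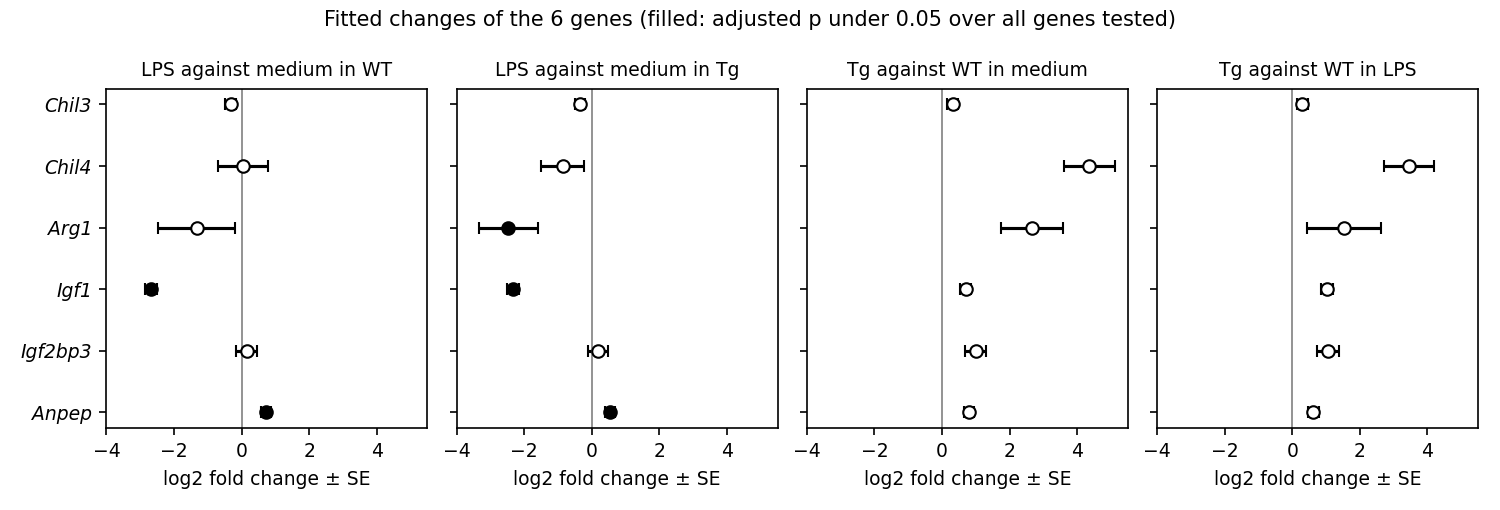
Log2 fold changes of the 6 genes with their SE from the fit over 12 libraries (3 per group), in 4 comparisons, filled where the adjusted p over all genes tested was under 0.05. With LPS, Igf1 lies near -2.67 in WT and -2.34 in Tg AMs, and in both comparisons of Tg with WT all 6 open points lie above 0.

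Set against WT AMs, all 6 members had an estimate above 0 in Tg AMs, both in medium and with LPS, and 0 of 6 passed the threshold over all genes by edgeR in either condition. In medium 0.262% of all genes were called, and with LPS 0.051%. In medium 5 of 6 members, all except Chil3, had an unadjusted p under 0.05 and a higher level in Tg, against 7.08% of all genes. With LPS it was 4 of 6, Chil4, Igf1, Igf2bp3 and Anpep, against 4.33%. DESeq2 called 4 of 6 in medium (Chil4, Igf1, Igf2bp3 and Anpep), where it called 501 genes in all, and 3 of 6 with LPS (Chil4, Igf1 and Anpep), where it called 146. The 2 comparisons use separate libraries but the same pools. Every Tg library lay above every WT library for Chil3, Chil4, Igf1 and Anpep in medium, where that held for 9.02% of all genes, and for Igf1, Igf2bp3 and Anpep with LPS, where it held for 5.72%. The members were chosen with results of these data known, so these counts are a description.

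Among the growth factor and its relatives, Igf1 was 1.63-fold higher in Tg AMs in medium (log2 0.70, SE 0.17, adjusted p = 0.127, edgeR). With LPS it was 2.05-fold higher (log2 1.03, SE 0.18, adjusted p = 0.138). The ranges did not overlap in either condition, and the differences in batches 1 and 2 were 0.98 and 0.5 in medium and 0.96 and 0.89 with LPS (log2 of CPM with 0.5 added). In each condition batch 1 held 1 Tg and 2 WT libraries and batch 2 held 2 Tg and 1 WT library. Each difference between the genotypes within a batch, here and below, thus rests on a single library of 1 genotype. Without Tg pool 18 the adjusted p with LPS was 0.0416 (log2 1.12, edgeR).

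Igf2bp3, the RNA-binding protein gene, was 2-fold higher in Tg AMs in medium (log2 1.00, SE 0.31, adjusted p = 0.218, edgeR) and 2.07-fold higher with LPS (log2 1.05, SE 0.32, adjusted p = 0.413). In medium the WT library of pool 18, at 13.6 CPM, lay above the Tg library of pool 17, at 13.2 CPM. With LPS the groups did not overlap. The difference in medium was 1.46 in batch 1 and 0.37 in batch 2, and with LPS 1.31 and 0.95.

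Anpep was 1.74-fold higher in Tg AMs in medium (log2 0.80, SE 0.16, adjusted p = 0.0886, edgeR) and 1.53-fold higher with LPS (log2 0.62, SE 0.16, adjusted p = 0.328). The batches gave 1.09 and 0.48 in medium and 0.79 and 0.51 with LPS. Chil3 was 1.25-fold higher in medium (log2 0.32, SE 0.16, adjusted p = 0.449, edgeR) and 1.23-fold higher with LPS (log2 0.30, SE 0.17, adjusted p = 0.859). With LPS its batch 1 difference was -0.09 and its batch 2 difference 0.68. The direction thus did not hold in batch 1, where the only Tg library was that of pool 17. Its LPS difference was 0.08 without the WT LPS library of pool 18, 0.51 without the Tg LPS library of pool 17, 0.13 without that of Tg pool 19 and 0.14 (adjusted p = 1, edgeR) without both libraries of Tg pool 19. The Arg1 estimates, at counts near the limit of reading, were 2.67 (SE 0.92, adjusted p = 0.259, edgeR) in medium and 1.54 (SE 1.09, adjusted p = 0.964) with LPS, and Tg pool 17 lay below the WT library of pool 18 in both. The Arg1 differences in batches 1 and 2 were 0.23 and 1.25 in medium and 0.14 and 0.19 with LPS. Without the WT pool 18 library of the same condition the estimates were 5.77 and 3.06, and with LPS the estimate was 0.95 without the LPS library of Tg pool 17, 2.33 without that of Tg pool 18 and 0.69 with the pool as a random replicate block.

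Chil4 had the largest fitted difference between the genotypes among the 6 genes. In medium, where the 3 WT libraries held 51 to 91 counts and the 3 Tg libraries 1240 to 1579, it was 20.5-fold higher in Tg AMs (log2 4.36, SE 0.76, adjusted p = 0.0533, edgeR), just outside the threshold. The log2 difference was 3.58 in batch 1 and 4.14 in batch 2. With LPS the WT libraries held 52 to 102 counts and the Tg libraries 914, 88 and 1318 in pools 17, 18 and 19, and the groups overlapped through pool 18. The log2 difference was 3.47 (SE 0.74, adjusted p = 0.216, edgeR). Without both libraries of Tg pool 18 it was 4.30 (adjusted p = 0.0049, edgeR) in medium and 3.91 (adjusted p = 0.00524) with LPS, and without those of Tg pool 19 it was 4.41 (adjusted p = 0.0669) and 2.55 (adjusted p = 0.389).

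Because the copies lie side by side and share sequence, the Chil4 counts were also read as a share of the Chil3 counts of the same library, which library scaling does not touch. In WT medium the share was 0.0162%, 0.0134% and 0.0107%, and in WT with LPS 0.0159%, 0.0207% and 0.0147%. In Tg medium it was 0.204%, 0.198% and 0.205%, and in Tg with LPS 0.199%, 0.0182% and 0.201% in pools 17, 18 and 19. The share was thus about the same in 5 Tg libraries, while the LPS library of Tg pool 18 lay within the range of the 6 WT libraries. Its partner in medium, from the same pool, was at 0.198%. The log2 share was 3.92 higher in Tg than in WT in medium (exact permutation p = 0.1, two-sided, the smallest that 3 against 3 allows, adjusted over 4 comparisons 0.3). With LPS it was 2.4 higher (exact permutation p = 0.2, adjusted 0.3), with 3.45 in batch 1 and 2.03 in batch 2. The shares changed with LPS by 0.35 in WT (exact permutation p = 0.3) and by -1.16 in Tg AMs (exact permutation p = 0.3).

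**Figure D3:**
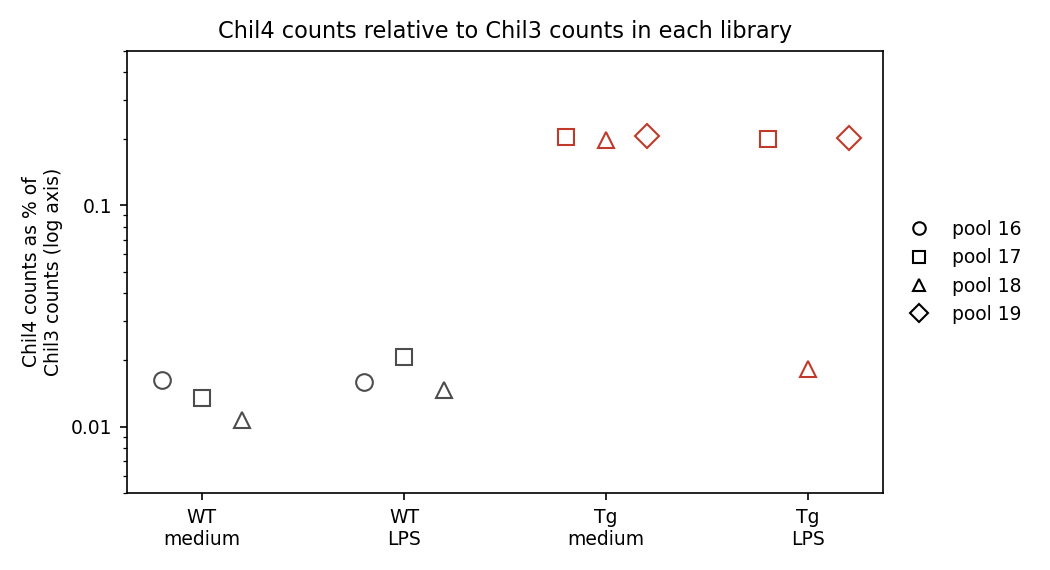
Chil4 counts as a percentage of Chil3 counts of the same library (log axis), 1 symbol per library, 3 libraries per group, WT in grey and Tg in red. The WT libraries lie between 0.0107% and 0.0207%, 5 Tg libraries between 0.198% and 0.205%, and the LPS library of Tg pool 18 at 0.0182%.

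In the Chil4 share the LPS library of Tg pool 18 thus lay among the WT libraries, against its label. Whether it was assigned to the right group was not tested. It did not stand apart in the other members. Its Chil3, Igf1, Igf2bp3 and Anpep values were 9194, 19.8, 19.8 and 484 CPM, and its Igf1, Igf2bp3 and Anpep values lay above all 3 WT LPS libraries. Within the Tg LPS group the highest Chil4 value was 14.9-fold above the lowest, and 10 of 9101 genes with a mean of at least 5 CPM (0.11%) spread at least as far, against a median of 1.27-fold. How much of the Chil4 count comes from Chil3 reads was not tested.

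Genes listed for the pathway that drives alternative activation, with inhibitors of JAK signalling among them, rose with LPS more often than they fell. Of 14 tested genes of the IL-4 and IL-13 receptor pathway, 8 rose and 2 fell in WT AMs and 7 rose and 1 fell in Tg AMs, with median log2 changes of 0.44 and 0.39 against 0 and -0.02 over all genes. Of all genes, 15.2% rose and 15.7% fell in WT and 18.8% and 17.8% in Tg AMs, and the same shares stand behind the list counts that follow. The largest rises in both genotypes were of Socs3 (4.22, SE 0.15, WT), Socs1 (2.65, SE 0.18) and Jak2 (2.04, SE 0.09), the first and second of which encode inhibitors of JAK signalling. Il4ra, the shared receptor chain, averaged 73.2 CPM in WT medium and 136 CPM with LPS (adjusted p = 0.00065, edgeR), and it rose as well in Tg AMs, where the means were 69.3 and 118 CPM (adjusted p = 0.00158). Irs2, an adaptor of the IL-4 and insulin receptors, fell by 0.46 (SE 0.12) in WT and by 0.76 (SE 0.12) in Tg AMs on the log2 scale. Stat6 changed by -0.21 (adjusted p = 0.191, edgeR) and -0.16 (adjusted p = 0.311). Il4 itself held at most 5 counts in any library. Between the genotypes 0 of 14 were called in either condition.

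The other alternative activation genes were split. Of 26 tested, 6 rose and 10 fell with LPS in each genotype, with median log2 changes of -0.35 in WT and -0.47 in Tg AMs. Mrc1, the mannose receptor, fell in both genotypes, to means of 94.5 CPM in WT and 94.3 CPM in Tg AMs out of 257 and 309 CPM in medium (log2 -1.46 and -1.72, SE 0.14 each). Pparg, the nuclear receptor of AM identity, had log2 changes of -2.08 and -2.51 (SE 0.07 each). Trem2, a lipid receptor gene, had log2 changes of -1.96 and -2.37 (SE 0.17 each). Mmp12, the macrophage elastase, rose by 2.32 in WT and 2.66 in Tg AMs (SE 0.2 each). Il1rn, the IL-1 receptor antagonist, rose by 1.83 (SE 0.12) and 2.81 (SE 0.13), and it was the only gene of the list called between the genotypes, lower in resting Tg AMs by a log2 value of -1.18 (SE 0.12, adjusted p = 0.00627, edgeR). Retnla, a further classical readout, held 0 to 72 counts with no called change.

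Beside Arg1 stands the rest of arginine and polyamine metabolism, in which 10 of 21 tested genes rose and 3 fell with LPS in each genotype. Arg2, the mitochondrial arginase, averaged 4.72 CPM in WT and 4.27 CPM in Tg medium, and with LPS it rose to 29.5 CPM (log2 2.64, SE 0.16) and 43.1 CPM (log2 3.33, SE 0.16). With LPS, mean Arg2 was 0.56 higher in Tg AMs on the log2 scale (SE 0.15, adjusted p = 0.355, edgeR). Slc7a2, an arginine transporter, rose to means of 1668 CPM (WT) and 2243 CPM (Tg), against 206 and 269 CPM in medium. Nos2, which makes nitric oxide from arginine, was at 0 counts in all 6 medium libraries and at 3, 30 and 7 counts in WT and 11, 28 and 20 counts in Tg AMs with LPS. Odc1, which makes the first polyamine from the ornithine that arginase yields, fell by 0.28 and 0.31 (SE 0.07 each), and the polyamine-handling genes Sat1 and Paox fell as well. Between the genotypes 0 of 21 were called.

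**Figure D4:**
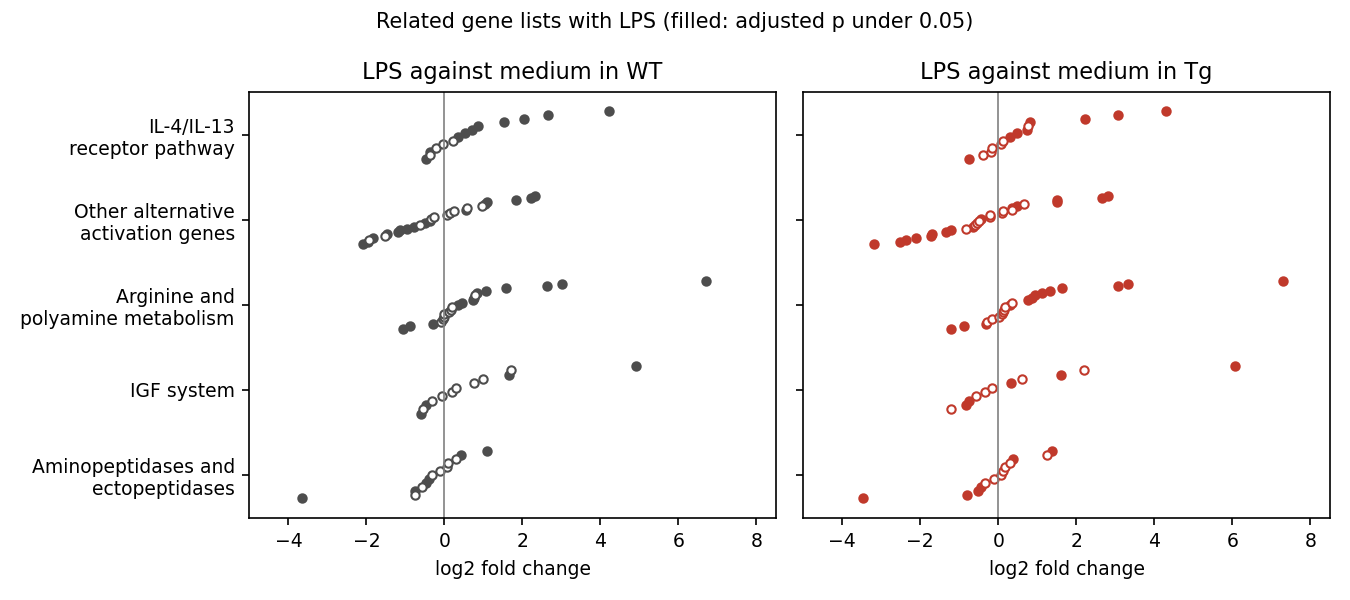
Log2 fold change with LPS of each tested gene of 5 related lists in WT (left) and Tg (right) AMs, members left out, filled where the adjusted p was under 0.05, with genes ordered by value within a list. Slc7a2 and Arg2 lie at 3.02 and 2.64 in WT among the arginine genes, and Ace at -3.66 lies lowest among the peptidases. The farthest arginine point is Nos2, at 0 counts in every medium library, so its fitted value is no measure of size.

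The IGF system around Igf1 spanned a wide range of levels, with Shc1, an adaptor, at group means of 128 to 162 CPM and Igfbp3, a binding protein gene, at 0 to 0.204 CPM. Of 12 tested genes 2 rose and 2 fell with LPS in WT AMs, and 3 rose and 2 fell in Tg AMs, near the shares of all genes. Igf1r, the receptor of IGF1, averaged 0.275 to 0.528 CPM with no called change. Insr, the insulin receptor gene, fell by 0.61 and 0.84 (SE 0.13 each) on the log2 scale. The relatives of Igf2bp3 differed from it. Igf2bp2 rose with LPS, to a mean of 93.5 CPM in WT (log2 1.67, SE 0.16) and 66.3 CPM in Tg AMs (log2 1.61, SE 0.16), where the medium means were 29.2 and 21.3 CPM, and its estimates for Tg against WT were -0.36 (adjusted p = 0.395, edgeR) and -0.42 (adjusted p = 0.644). Igf2bp1 went from at most 3 counts in medium to at most 46 counts in WT and 92 in Tg AMs with LPS. In the list, 0 of 12 genes were called between the genotypes.

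Of 13 tested aminopeptidases and ectopeptidases other than Anpep, 2 rose and 4 fell with LPS in each genotype, with rises near the share of all genes. Metap1, which removes the first methionine of new proteins, rose by 1.09 and 1.38 (SE 0.07 each), and Erap1, which trims peptides for MHC class I, by 0.42 and 0.38 (SE 0.09 each). Ace, the angiotensin-converting enzyme, fell with LPS, with means of 14.1 and 1.1 CPM in WT and 20.1 and 1.8 CPM in Tg AMs. In the chitinase-like family, 3 of 6 genes in the table besides Chil3 and Chil4 were tested and 0 changed in any comparison. Chil1 averaged 0.932 to 1.39 CPM. Of 8 genes of the epithelial type 2 response that the table holds, 0 passed the filter, and the highest count, of the mucin gene Muc5b, was 13.

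The genes whose log2 CPM followed each member most closely over the 12 libraries, among 11151 with a mean of at least 1 CPM, are given as a description, since these libraries share groups and pools. Igf1 was followed by Kynu (Pearson r = 0.991), Hexa (0.985) and Nipal3 (0.985). Kynu, the kynureninase gene, averaged 19.7 and 2.15 CPM in WT and 36.3 and 5.44 CPM in Tg AMs in medium and LPS. Anpep was followed by Slfn1 (0.959), H2-T24 (0.945) and Slfn5 (0.942), and Igf2bp3 by Ly6e (0.93), Sp110 (0.925) and Tent5a (0.917). Ly6e, an interferon-induced surface protein gene, averaged 394 and 501 CPM in WT and 658 and 665 CPM in Tg AMs. Chil3 was followed by Chchd10 (0.933), Ang (0.933) and Wdr45 (0.905), Chil4 by Dgkq (0.902), Lrg1 (0.857) and P2rx4 (0.852), and Arg1 by Csf2ra (0.942), Neil1 (0.925) and Tspan13 (0.919). Dgkq, closest to Chil4, was at 11.3 CPM in the LPS library of Tg pool 18 and at 16.9 and 17.9 CPM in those of pools 17 and 19. It was picked by its correlation with Chil4 over these same libraries, so these values are no separate sign about that library. Between members, the highest correlations were of Igf2bp3 with Anpep (0.8) and of Chil3 with Igf1 (0.76), and that of Igf1 with Anpep was -0.28.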

How the data were processed

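RNA of 12 libraries (SMART-Seq v4, paired-end 125 bp) was mapped by the authors with HISAT2 to mm10, from a kit that keeps no strand, and counted with StringTie against GENCODE M20. The deposited values are estimated counts per gene, whole numbers derived from coverage, in steps near 2.5 per read, and were not normalised. No column was left unused. The labels' protocol describes adherent lavage cells, whereas the study's methods also describe sorted cells. Genes were named with GENCODE M21. Counts were fitted with edgeR 4.0.16 (filterByExpr minimum count 10 and total 15, TMM, quasi-likelihood, terms for group and batch, 2 batches, all 12 libraries) and p-values adjusted over 13729 genes by Benjamini-Hochberg at 0.05. The study's own batch term was the date of library preparation, and the 2 batches were taken as these dates. The SE is the log2 fold change over the root of F. CPM used TMM-scaled totals, and the level of 8 counts covers counting error only. The fit was tested on simulated data.

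The members and gene lists were chosen with earlier results of these data known. The named genes were the members, at most 3 called genes per direction of each list and comparison, Retnla, Mrc1, Nos2, Arg2, Igf1r, Il4ra, Stat6, Chil1 and Igf2bp2, and 3 correlated genes per member. Xist, Il4, Muc5b and marker genes were added after their values were seen. Pools were read from the numbers in the titles. Deviations from the group means in the medium and LPS libraries of a pool correlated at 0.14 to 0.34 in all 6 pools. Both libraries of a pool were in the same batch and batch was not removed, so these correlations cannot tell pool from batch. The replicate block thus takes the title numbers as a pairing. DESeq2 1.42.0 and limma 3.58.1 gave alternatives. Exact permutation tests used SciPy 1.17.1 and alignments Biopython 1.88.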

Additional observations from a re-analysis of the deposited data

How the results depend on the processing

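Each value was recomputed under 25 other settings where it could be fitted, and 3 of these (robust dispersions and leaving out Tg pool 18 or 19) were chosen after the data were seen. The fall of Igf1 with LPS in both genotypes and the rise of Anpep with LPS in WT AMs passed the threshold in all 24 settings run for them. With the pool as a fixed replicate block, Chil3 with LPS was -0.34 in WT and -0.37 in Tg AMs, and with the pool as a random effect it was -0.34 and -0.37, all past the threshold. The paired fits changed no other member's call, and with the random effect the count of all genes between the genotypes with LPS was 11. Chil3 also passed in WT AMs with 6 libraries alone (-0.3) or without Tg pool 19 (-0.33), and in Tg AMs with library totals only (-0.46) or without Tg pool 19 (-0.44). Arg1 in Tg AMs missed the threshold with no low-count filter (-2.39), no batch term (-2.83), or without Tg pool 18 (-2.01) or 19 (-1.95), and Anpep without Tg pool 18 (0.58) or 19 (0.49). Chil4 in WT AMs turned to -0.06 with library totals only. Summing Chil3 and Chil4 returned the Chil3 values, since Chil4 holds so few of the counts (-0.32 for LPS in WT AMs, 0.33 and 0.3 for Tg against WT in medium and with LPS), and says nothing about Chil4 alone.

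Between the genotypes DESeq2 called, in medium, Igf2bp3 (1.0), Anpep (0.8), Igf1 (0.7) and Chil4 (4.39), and with LPS Anpep (0.61), Igf1 (1.03) and Chil4 (3.49). Chil4 in medium also passed with 6 libraries (4.28), with counts divided by 5 (4.29) and without Tg pool 18 (4.3), and without that pool Chil4 (3.91) and Igf1 (1.12) passed with LPS. Of all genes, 36 were called in medium, 501 by DESeq2, 20 with no low-count filter, 19 with no batch term, 12 with 6 libraries, 61 with counts divided by 5 and 9 without Tg pool 19. With LPS 7 were called, 146 by DESeq2, 1 with no batch term, 2 with 6 libraries, 11 with counts divided by 5 and 13 without Tg pool 18. For the difference in response 0 were called, 77 by DESeq2 and 1 without Tg pool 18. The cause of these shifts was not tested.

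When 1 library was left out, values for LPS in WT AMs ran from -0.16 to 0.63 for Igf2bp3, from -2.8 to 1.78 for Arg1, from -0.16 to 0.17 for Chil4 and from -0.39 to -0.16 for Chil3. In Tg AMs they ran from -0.04 to 0.32 for Igf2bp3, from 0.44 to 0.64 for Anpep, from -3.13 to -1.69 for Arg1, from -2.07 to -0.32 for Chil4 and from -0.54 to -0.19 for Chil3. In Tg against WT, Chil4 ran from 4.21 to 4.66 in medium and from 2.56 to 3.91 with LPS, Arg1 from 2.15 to 5.77 and from 0.95 to 3.06, and Chil3 from 0.23 to 0.41 and from 0.08 to 0.51. The counts of all genes ran from 4 to 27 in medium, from 2 to 11 with LPS and from 0 to 1 for the difference. The differences in response ran from -0.44 to 0.36 for Igf2bp3, from -4.21 to 0.37 for Arg1 and from -0.23 to 0.14 for Chil3. At 8 counts or fewer, Arg1 cannot be read in 8 of the 12 libraries.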
